A study of Canis lupus familiaris with 30 samples.

Results

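The chemokine receptors that steer lymphocytes and monocytes out of blood were followed in dogs on a raw meat or a kibble diet. Every non-control probe whose RefSeq transcript belongs to CCR9, CXCR3, CX3CR1 or ACKR3 was taken, which gave 4 probes, 1 for each gene, among 43603 probes of the array. The 2175 probes with a symbol cover 1353 genes. Sequences are not printed, since the files used here hold none for these probes.

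The cells were peripheral blood mononuclear cells (PBMC), the fraction of white blood cells that density centrifugation recovers. Adult dogs ate only a raw red meat diet high in protein and fat (7 dogs) or only a kibble that contains carbohydrate (8 dogs) for 9 weeks. Blood of weeks 0 (the start), 3, 6 and 9 gives 8 groups, meat and kibble at each week, and no breed, sex or age is used here. RNA of 2 groups was labelled with the dyes Cy3 and Cy5 and put on each of 30 arrays: 14 compare meat with kibble of the same week (3 arrays each for weeks 0 and 3, 4 each for weeks 6 and 9), and 16 compare a later with an earlier week of the same diet, namely 9 with 0 and 6 with 3, on 4 arrays each per diet. The design states 6 biological replicates, each group was read in 7 or 8 channels, and the dog behind each channel is not named. The p-values therefore measure the spread between arrays, which may in part be technical.

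Chemokine receptors are G protein-coupled receptors that move cells along gradients of small secreted proteins. CCR9 binds CCL25, made by the epithelium of the small intestine and by the thymus, and marks T cells that home to the gut. CXCR3 binds CXCL9, CXCL10 and CXCL11, which interferon induces, and marks Th1 and effector CD8 T cells bound for inflamed tissue. CX3CR1 binds fractalkine (CX3CL1) on inflamed endothelium and is carried in human blood by monocytes, NK cells and cytotoxic T cells. ACKR3 binds CXCL12 and removes it without classical G protein signalling. These roles are known mainly from human and mouse.

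Ratios were normalised within each array and fitted with limma, with a term for each group and one for the dye, and p-values were adjusted by Benjamini-Hochberg over all 25954 genes and unnamed transcripts tested (below, transcripts). An adjusted p under 0.05 is called a pass. Values are log2 ratios ± SE, in which 1 is a doubling, and an array's own value has the gene's dye term removed. On single arrays the probes well above background numbered 20089 to 42703 in the Cy3 channel, and the Cy5 channel had 19423 to 43411. In PBMC, fewer cells of a type and less RNA per cell cannot be told apart. The 4 monocyte markers and the 3 T cell markers measured were well above background in all 60 channels, and so were the 6 platelet markers. The meat arrays of weeks 0 and 9 include one that stands apart. On the array meat 9/meat 0 replicate 1 (array names give the Cy3 sample first, Cy5 second) CCR9 was at 10.23 at week 9 and 10.60 at week 0 on the normalised log2 signal scale, while no other channel exceeded 9.35. The same array had the lowest CX3CR1 levels on that normalised scale, 7.17 at week 9 and 7.01 at week 0. Without it the calls given below remained: 0.42 and 0.62 for CCR9, -0.52 and -0.89 for CX3CR1 and -0.73 for CXCR3, on the log2 ratio scale.

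CCR9, CXCR3 and CX3CR1 were detected throughout and ACKR3 only in part. The probes of CCR9, CXCR3 and CX3CR1 were well above background in 60 of 60 channels, with median background-subtracted signals of 201, 153 and 315 fluorescence units. ACKR3 was well above background in 41 of 60 channels (68.3%), 21 of 30 meat and 20 of 30 kibble channels, with a median signal of 47.5 units. Its share was lower on the arrays that compare weeks (19 of 32 channels) than on those that compare diets (22 of 28), which were scanned in another session. Its 2 highest normalised levels, 7.16 at week 9 and 7.17 at week 0, came from the array kibble 0/kibble 9 replicate 1, on which its signals were -17 and 18.5 units, both not well above background. Signals of different probes were not compared with each other.

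**Figure D1:**
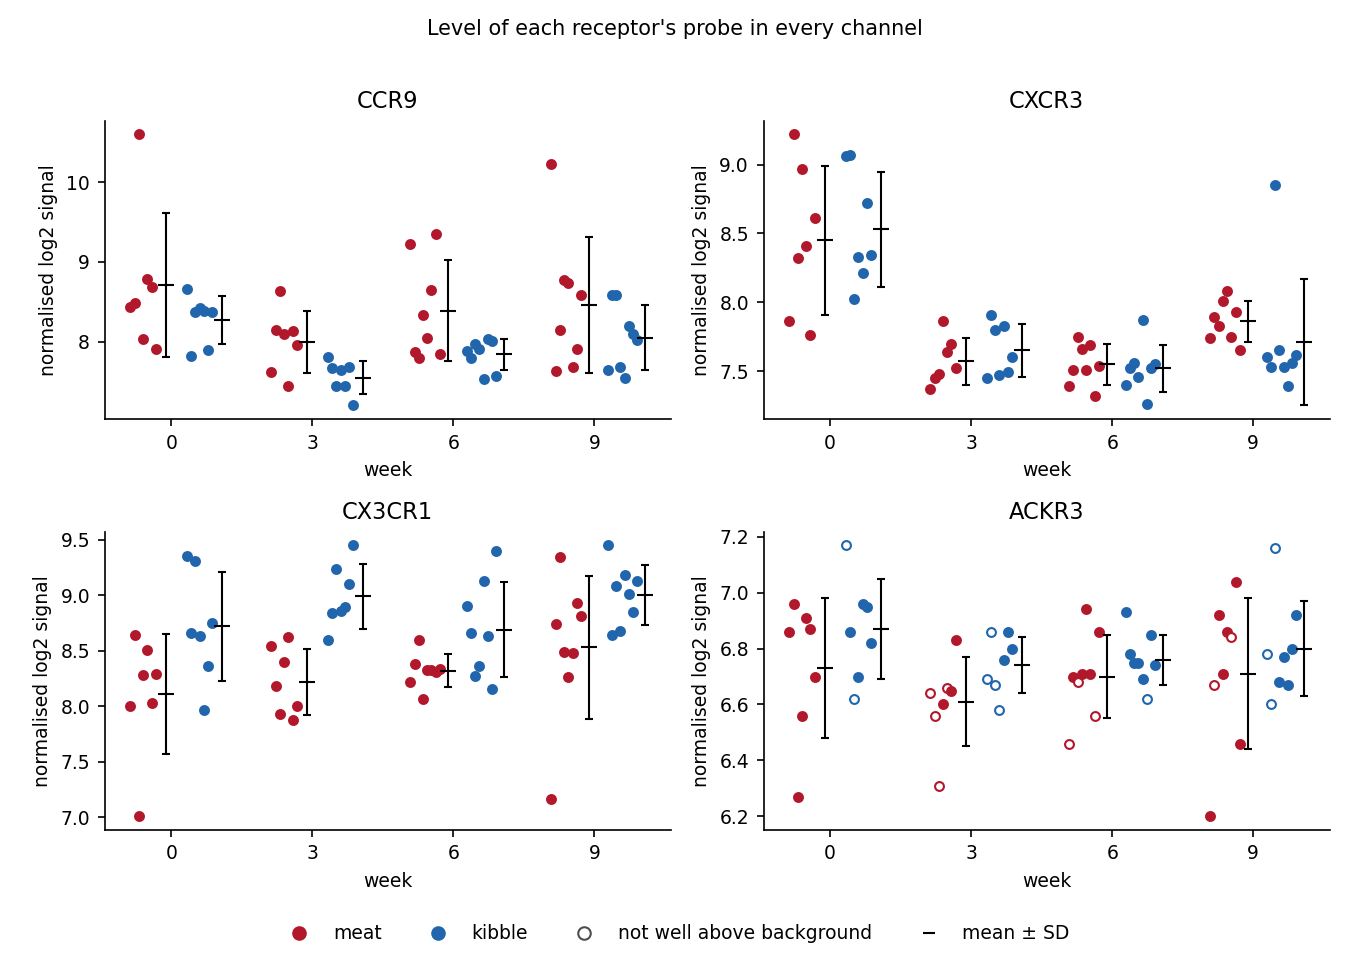
Normalised log2 signal of each receptor's probe in every channel, by week and diet (meat red, kibble blue; open points are not well above background; bars are the mean ± SD of 7 or 8 channels). CXCR3 lies highest at week 0 on both diets, CX3CR1 means are lower on meat than on kibble at every week, and 1 meat array carries the 2 highest CCR9 and lowest CX3CR1 points.

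By group, CCR9 averaged 8.71 ± 0.90, 8.00 ± 0.39, 8.39 ± 0.63 and 8.46 ± 0.85 on the log2 signal scale in meat-fed dogs at weeks 0, 3, 6 and 9 (SD, n = 7, 7, 8 and 8 channels), against 8.27 ± 0.30, 7.55 ± 0.21, 7.84 ± 0.19 and 8.05 ± 0.41 in kibble-fed dogs. Meat averaged higher at each week, and channels of the diets overlapped at each week. Without the array that stands apart the meat mean was 8.39 ± 0.35 at week 0 and 8.21 ± 0.49 at week 9. The order of the 8 groups ran from meat at week 0 down to kibble at week 3, and 6 of its 7 neighbouring steps were smaller than the larger SD of the pair.

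CX3CR1 averaged 8.11 ± 0.54, 8.22 ± 0.30, 8.32 ± 0.15 and 8.53 ± 0.64 in meat-fed dogs at weeks 0, 3, 6 and 9, against 8.72 ± 0.49, 8.99 ± 0.29, 8.69 ± 0.43 and 9.00 ± 0.27 in kibble-fed dogs. The 4 kibble groups held the 4 highest means and the 4 meat groups the 4 lowest, yet all 7 neighbouring steps were within the SD. Without the array that stands apart the meat mean was 8.29 ± 0.25 at week 0 and 8.72 ± 0.36 at week 9. Meat at week 9 was then level with kibble at week 0 and above kibble at week 6, so the split of the diets did not hold. At week 3 the highest meat channel was at 8.62 and the lowest kibble channel at 8.60, so that the groups met at their edges only.

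CXCR3 was set apart by week, not by diet. It averaged 8.45 ± 0.54 in meat-fed and 8.53 ± 0.42 in kibble-fed dogs at week 0, and between 7.52 and 7.86 in the other 6 groups. The step from week 0 to the next group, meat at week 9, was the 1 of 7 that exceeded the larger SD. ACKR3 means lay between 6.61 and 6.87, with all 7 steps within the SD. Weeks 0 and 9 share no array with weeks 3 and 6, so levels across these pairs of weeks also carry slide differences.

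The first question was whether the receptors differ between diets while the diets are fed, taken as the mean over weeks 3, 6 and 9. CCR9 was 1.34-fold higher in meat-fed than in kibble-fed dogs (log2 0.42 ± 0.12, adjusted p = 0.0177 in limma), and CX3CR1 was 1.43-fold lower (log2 -0.52 ± 0.10, adjusted p = 0.00103). CXCR3 (0.05 ± 0.12, adjusted p = 0.865) and ACKR3 (-0.06 ± 0.04, adjusted p = 0.414) did not pass. The 95% intervals of those differences were -0.19 to 0.28 for CXCR3 and -0.15 to 0.03 for ACKR3. Of all transcripts 14.9% passed in this comparison, so 2 passes among 4 receptors are set against that share. CCR9 lay above 99.5% of all transcripts in the size of its signed difference and CX3CR1 above 1.24%.

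On the 11 diet arrays of weeks 3, 6 and 9, CX3CR1 ran from -1.27 to 0.18 with a median of -0.59 and was lower in meat on 9 of 11. CCR9 ran from -0.35 to 1.47 with a median of 0.27 and was higher in meat on 9 of 11, 1 of these at 0.00, or on 8 of 11 with the dye term left in. The CCR9 mean was 0.29 (adjusted p = 0.107 in limma) without the array kibble 6/meat 6 replicate 1, 0.37 (adjusted p = 0.0596) without meat 3/kibble 3 replicate 2 and 0.37 (adjusted p = 0.0504) without meat 6/kibble 6 replicate 2. From the 11 arrays alone it was 0.43 (adjusted p = 0.126). The CX3CR1 call held in each of the 46 other fits tried, with values between -0.63 and -0.46.

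**Figure D2:**
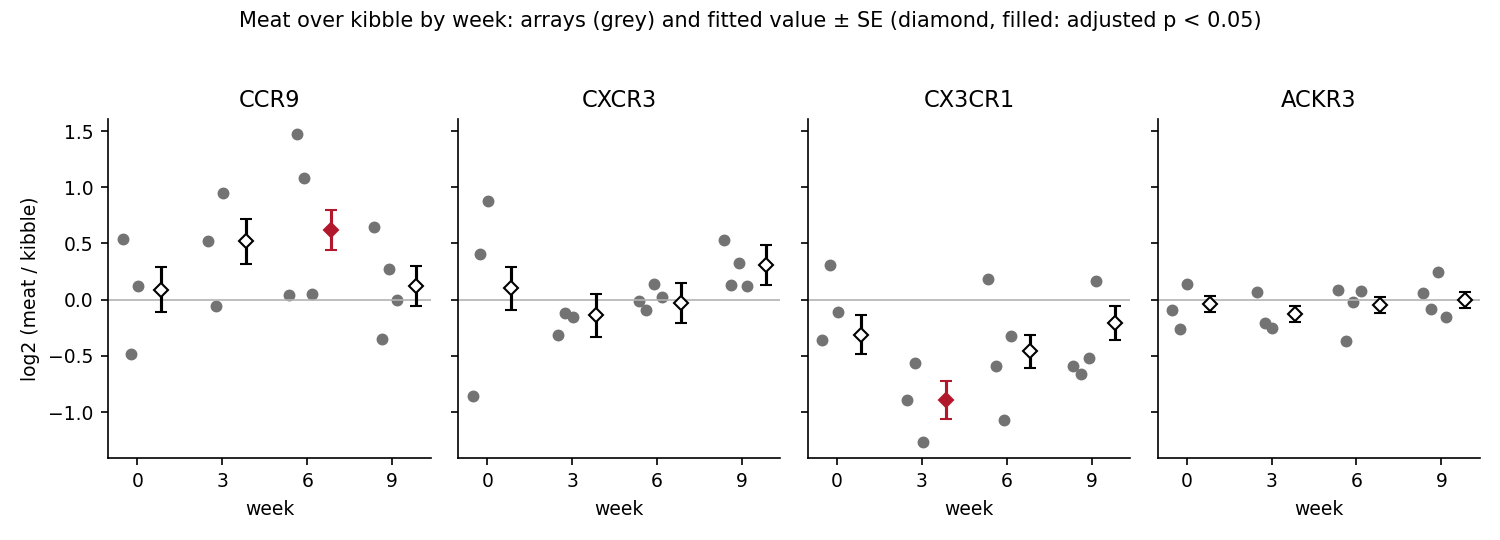
Log2 ratio of meat over kibble for each receptor at weeks 0, 3, 6 and 9. Grey points are single arrays with the dye term removed, diamonds the fitted value ± SE from all arrays, filled where the adjusted p is under 0.05 (CCR9 at week 6, CX3CR1 at week 3).

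Week by week, the difference in CX3CR1 was largest at week 3. The 3 arrays gave -1.27, -0.89 and -0.56, all lower in meat. The fitted value was -0.89 ± 0.17, 1.85-fold lower (adjusted p = 0.0036 in limma), where 6.09% of all transcripts passed. At week 6 the 4 arrays gave -1.07, -0.59, -0.32 and 0.18 (fitted -0.46 ± 0.15, adjusted p = 0.0733), where 6.23% passed. At week 9 they gave -0.66, -0.59, -0.52 and 0.17 (fitted -0.21 ± 0.15, adjusted p = 0.704), where 0.582% passed. The week 3 value was -0.75 (adjusted p = 0.0647) without the array meat 3/kibble 3 replicate 2, and the 3 arrays alone gave -0.90 (adjusted p = 0.172).

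CCR9 was highest relative to kibble at weeks 3 and 6. The week 3 arrays gave 0.95, 0.52 and -0.06 (fitted 0.52 ± 0.20, adjusted p = 0.112). The week 6 arrays gave 1.47, 1.08, 0.05 and 0.04, so 2 arrays carried the difference while the other two stood near 0. The fitted week 6 value was 0.62 ± 0.18, 1.54-fold higher in meat (adjusted p = 0.0423 in limma). It was 0.35 (adjusted p = 0.397) without kibble 6/meat 6 replicate 1, and the 4 arrays alone gave 0.66 (adjusted p = 0.312). At week 9 the arrays gave 0.65, 0.27, 0.00 and -0.35 (fitted 0.12 ± 0.18, adjusted p = 0.878).

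CXCR3 differed little between diets at weeks 3 and 6. Its arrays gave -0.12, -0.15 and -0.31 at week 3 (fitted -0.14 ± 0.19) and between -0.09 and 0.14 at week 6 (fitted -0.03 ± 0.18). At week 9 all 4 arrays were higher in meat, at 0.53, 0.33, 0.13 and 0.12 (fitted 0.31 ± 0.18, adjusted p = 0.582 in limma). ACKR3 arrays of the fed weeks lay between -0.37 and 0.25, with fitted values of -0.13 ± 0.07, -0.05 ± 0.07 and 0.00 ± 0.07 at weeks 3, 6 and 9.

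At week 0, when 0.312% of all transcripts passed, no receptor did. CX3CR1 stood at -0.31 ± 0.17 (adjusted p = 0.641 in limma), with 3 arrays at 0.31, -0.11 and -0.36. CCR9 stood at 0.09 ± 0.20 (0.54, 0.12 and -0.48) and CXCR3 at 0.10 ± 0.19 (0.88, 0.41 and -0.86). The 3 CXCR3 arrays lay on both sides of 0, each farther from it than any fitted CXCR3 diet difference. The fed difference minus that of week 0 was 0.33 ± 0.22 for CCR9 (adjusted p = 0.712) and -0.21 ± 0.18 for CX3CR1 (adjusted p = 0.809), so neither was shown to differ from week 0. In that comparison limma passed 0 of 25954 transcripts, a share of 0%, and 2346 had an unadjusted p under 0.05. Its 95% intervals were -0.12 to 0.77 for CCR9 and -0.59 to 0.16 for CX3CR1.

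The contrast of gut homing against inflammatory and cytotoxic homing was read within arrays, as the CCR9 ratio minus the ratio of each other receptor. Against CX3CR1 the difference was positive on 9 of 11 fed diet arrays, with a range of -0.17 to 2.22 and a median of 0.79. Against CXCR3 it was positive on 8 of 11, with a range of -0.47 to 1.55 and a median of 0.06. At week 3 all 3 arrays were positive against CX3CR1 (0.50 to 2.22), and at week 6 3 of 4 (-0.14 to 2.15). Fitted values gave 1.41, 1.08 and 0.33 at weeks 3, 6 and 9 against CX3CR1, and 0.66, 0.65 and -0.19 against CXCR3. At week 0 they were 0.40 and 0.00. These differences are descriptions without a test.

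**Figure D3:**
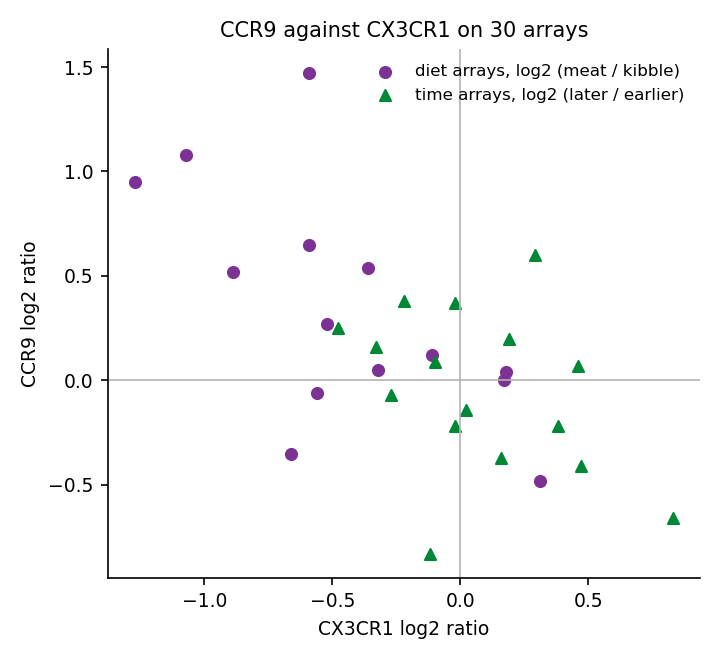
CCR9 against CX3CR1 on each of the 30 arrays as log2 ratios with the dye term removed (purple, meat over kibble; green, later over earlier week). The receptors lay on opposite sides of 0 on 20 arrays, 14 of them with CCR9 up and CX3CR1 down.

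CCR9 and CX3CR1 ran opposite to each other over the arrays. The Cy5 over Cy3 ratios had r = -0.66 and rho = -0.64 over 30 arrays, or r = -0.63 with the ratios turned to meat over kibble and later over earlier week. Within the 14 diet arrays r was -0.77 and within the 16 time arrays -0.47. Without the 2 arrays farthest from the CCR9 median it was -0.60. The other pairs of receptors had r between -0.26 and 0.19. Arrays share samples and dogs, so these are descriptions, as are the likeness values below.

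The named gene whose ratios were most like those of CCR9, among 1089, was TNFRSF18 (r = 0.74), the T cell costimulatory receptor GITR. HTR2A (0.71), the potassium channel KCNA2 (0.71), the lysosomal phospholipase PLA2G15 (0.70) and the thymidylate synthase TYMS (0.66) followed. Most opposite were the GTPase RHOB (-0.77), the tropomyosin TPM3 (-0.76) and PPP3CA, the catalytic subunit of calcineurin (-0.74). CX3CR1 was the 13th most opposite of the 1089.

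For CX3CR1 the most alike included ANXA4 (r = 0.87), RHOB (0.86), DLA-DQA1 of MHC class II (0.83) and YBX3 (0.78). Over weeks 3, 6 and 9 these 4 genes stood between -0.63 and -0.21 in meat over kibble. They were chosen for ratios like those of CX3CR1 on arrays that include these weeks. That they lie below 0 like CX3CR1 follows from the choice and is no separate result. The 3 most opposite were GSTA4 (-0.73), EIF2D (-0.69) and ADAMTS10 (-0.69), and CCR9 was the 5th most opposite. For ACKR3 the 5 most alike were the collagen hydroxylase PLOD1 (0.74), the cytokine IL15 (0.70), BCL2 (0.65), TIMP3 (0.63) and TAPBP (0.62). HTR2A (-0.60), ATM (-0.58) and GUCA2A (-0.56) were most opposite to it.

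Markers of several cell types, not only of those that carry CX3CR1, ran with it over the arrays. Of all transcripts 14.9% passed over the fed weeks, the share beside which the counts of markers and homing genes stand. All 4 measured monocyte markers were lower in meat over the fed weeks: CYBB, a chain of the phagocyte oxidase (-0.69 ± 0.10), CD163 (-0.60 ± 0.14), TLR4 (-0.43 ± 0.10) and CTSS (-0.39 ± 0.09). Of 6 cytotoxic T and NK markers 4 were lower: CCL5 (-0.92 ± 0.15), CD8A (-0.45 ± 0.11), perforin PRF1 (-0.31 ± 0.10) and FASLG (-0.27 ± 0.08). The list medians were -0.52 for monocyte and -0.29 for cytotoxic markers, against 0.00 for all transcripts. The summed log2 signal of the monocyte list ran from 13.87 to 15.31 in meat channels of weeks 3, 6 and 9 and from 14.52 to 15.64 in kibble channels. That of the cytotoxic list ran from 13.00 to 15.67 in meat and from 13.61 to 15.87 in kibble. No monocyte marker was near 0, while NCR1 of the cytotoxic list was well above background in 20 of 60 channels. Over the 30 arrays CX3CR1 had r between 0.57 and 0.66 with the 4 monocyte markers and between 0.31 and 0.61 with the 6 cytotoxic markers. It had r between 0.35 and 0.61 with the 6 platelet markers, between 0.15 and 0.64 with the 4 neutrophil markers, between 0.10 and 0.24 with the 2 B cell markers, and between -0.64 and -0.23 with the 3 T cell markers. The part of these cells in the CX3CR1 result was not tested.

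The signs were mostly turned for CCR9. Its r was between -0.61 and -0.40 with the monocyte markers, between -0.60 and -0.43 with the cytotoxic markers and between 0.26 and 0.54 with the 3 T cell markers. It was between -0.58 and -0.44 with the platelet markers, between -0.39 and 0.04 with the neutrophil markers and between -0.37 and -0.27 with the B cell markers. Of the T cell markers the costimulatory receptor CD28 (0.25 ± 0.05, adjusted p = 0.00277 in limma) and CD40LG (0.33 ± 0.09, adjusted p = 0.0174) were higher in meat, and CD4 did not pass. The summed T cell log2 signal ran from 10.43 to 11.30 in meat and from 10.35 to 11.05 in kibble channels of weeks 3, 6 and 9. All 6 platelet markers were lower in meat (list median -0.84), with a summed signal of 13.12 to 15.11 in meat and 14.65 to 16.36 in kibble. Of 4 neutrophil markers 3 were lower, as was 1 of 3 basophil and mast cell markers (MS4A2, -1.17 ± 0.11). None of the 2 B cell and 3 plasmacytoid dendritic cell markers passed. Some of these differences were there at week 0, with list medians of -0.61 for platelet, -0.46 for monocyte and -0.36 for neutrophil markers. The cytotoxic and T cell medians were then 0.02 and 0.13. MS4A2 was at -1.17 ± 0.18 at week 0 (adjusted p = 0.00265 in limma), where 0.312% of all transcripts passed. No marker passed in the fed difference minus that of week 0. The part of all these cells in the CCR9 result was not tested.

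Of the other chemokine receptors CCR1 (-0.05 ± 0.10), CCR3, the eotaxin receptor (-0.01 ± 0.15), CCR4 (-0.03 ± 0.04) and CXCR2 (-0.05 ± 0.15) did not pass over the fed weeks in limma, with adjusted p-values of 0.844, 0.981, 0.735 and 0.893. Of 6 listed ligands 3 were measured and none passed: CCL25 for CCR9 stood at -0.02 ± 0.03, CXCL10 for CXCR3 at 0.03 ± 0.07 and CX3CL1 for CX3CR1 at 0.03 ± 0.04. The CXCL12 probe, for ACKR3, was above background in too few channels to be tested. Of 12 other chemokines measured CCL5 alone passed, lower in meat.

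Retinoic acid, which induces CCR9 on mouse and human T cells, acts through receptors such as RARA. Of the 2 measured gut imprinting genes RARA was lower in meat (-0.21 ± 0.05, adjusted p = 0.0085 in limma, 10 of 11 arrays) and ALDH1A1 did not pass. Of 5 adhesion genes the hyaluronan receptor CD44 (-0.50 ± 0.09) and P-selectin, SELP (-0.76 ± 0.17), which platelets also carry, were lower. Of 5 measured Th1 genes IL12A was higher (0.28 ± 0.06) and the IL-12 receptor chain IL12RB2 lower (-0.37 ± 0.12). In the RefSeq assembly UU_Cfam_GSD_1.0, which is not the build of the array, the chemokine receptor genes XCR1 and CXCR6 lie near CCR9 and CCR8 lies next to CX3CR1, and none of these neighbours was measured.

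The second question was how the receptors changed between weeks within a diet. CXCR3 fell on kibble between weeks 0 and 9. On that diet the 4 arrays gave -1.43, -0.94, -0.49 and -0.22, all lower at week 9. The fitted change was -0.74 ± 0.17, 1.66-fold lower (adjusted p = 0.00541 in limma), where 13.6% of all transcripts passed. On meat the arrays gave -1.08, -0.58, -0.57 and 0.25 (fitted -0.53 ± 0.17, adjusted p = 0.0624), where 8.04% passed. The change on meat minus that on kibble was 0.21 ± 0.22 (95% interval -0.23 to 0.65, adjusted p = 0.845), so the diets were not shown to differ. In that comparison limma passed 0% of transcripts, 0 of 25954, and 2034 had an unadjusted p under 0.05.

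The kibble value of CXCR3 stayed below 0 without each array in turn (-0.85 to -0.58). On slide 1 its 2 kibble arrays gave -1.43 and -0.22 and on slide 2 -0.94 and -0.49, so both slides showed the direction. All arrays of 1 diet between weeks had 1 dye order, so the dye is separated from time only through the other arrays. The dye term of CXCR3 was small (-0.05 ± 0.08). The value was -0.66 (adjusted p = 0.0769) with each slide as a fixed term, and the 4 arrays alone gave -0.82 (adjusted p = 0.0519).

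**Figure D4:**
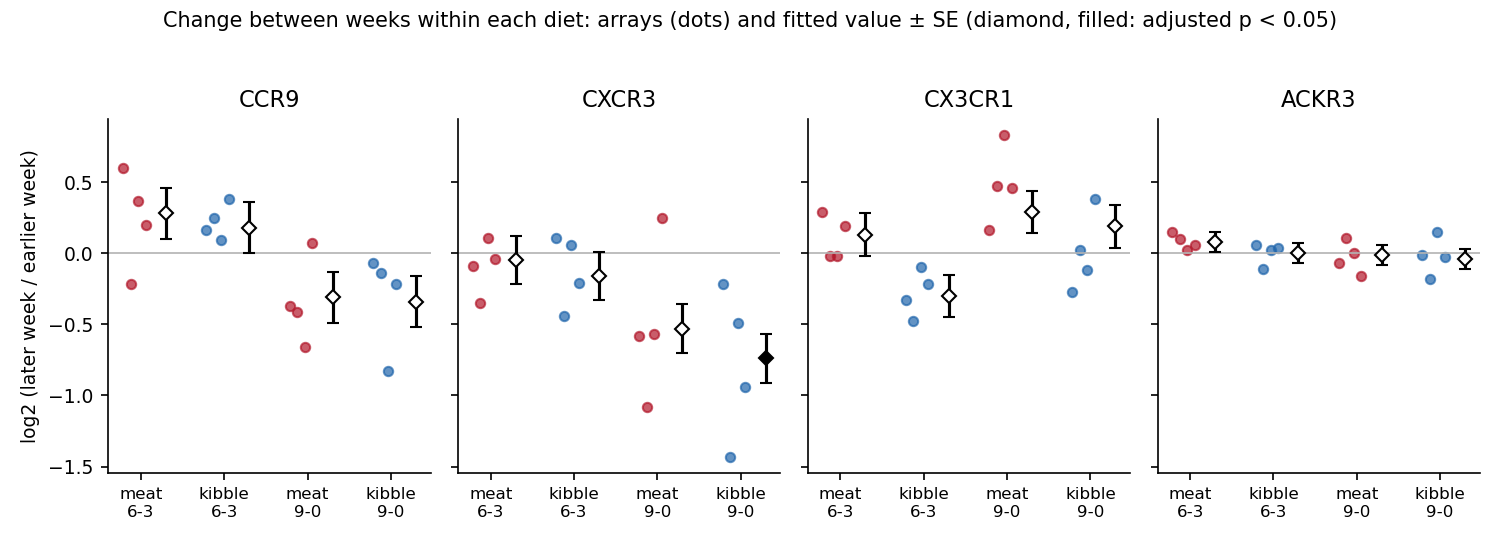
Log2 ratio of the later over the earlier week within each diet, week 6 over 3 and week 9 over 0. Dots are single arrays with the dye term removed (meat red, kibble blue), diamonds the fitted value ± SE, filled where the adjusted p is under 0.05 (CXCR3 on kibble, week 9 over 0).

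The named genes whose ratios were most like those of CXCR3 were not chemokine genes. They were CALCR, the calcitonin receptor (r = 0.90), MAVS, an adaptor of antiviral RNA sensing (0.90), ADRB1, the beta adrenergic receptor of heart (0.89), MYH7, the slow myosin heavy chain of heart and muscle (0.89) and the ubiquitin ligase NHLRC1 (0.88). All 5 fell from week 0 to week 9 on kibble with a pass, where 13.6% of all transcripts passed. They were chosen for ratios like those of CXCR3 on arrays that include these, so that count follows from the choice and is no separate result. MYH7 fell by the most at -2.19 (adjusted p = 0.000229 in limma), ADRB1 was at -1.20 (adjusted p = 0.000761) and NHLRC1 fell by the least at -0.36 (adjusted p = 0.00807). On meat MYH7 was at -1.63 (adjusted p = 0.00654) and NHLRC1 at -0.28 (adjusted p = 0.0533). MYH7 and ADRB1 were dim, with median signals of 75 and 133 units, and were well above background in 52 and 59 of 60 channels. The 3 T cell markers had r between -0.27 (CD40LG) and 0.52 (CD4) with CXCR3. Of these CD4 alone passed at week 9 on meat, lower (-0.90 ± 0.27, adjusted p = 0.0426 in limma), where 8.04% of all transcripts passed. The T cell list median was 0.02 on meat and -0.18 on kibble, so the list did not fall as CD4 did. On kibble CD4 stood at -0.78 ± 0.27 (adjusted p = 0.057), below 0 on 4 of 4 arrays. What these genes share with the CXCR3 result was not tested. UGCG (-0.75), SLC5A3 (-0.70) and RBM12 (-0.70) were most opposite.

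**Figure D5:**
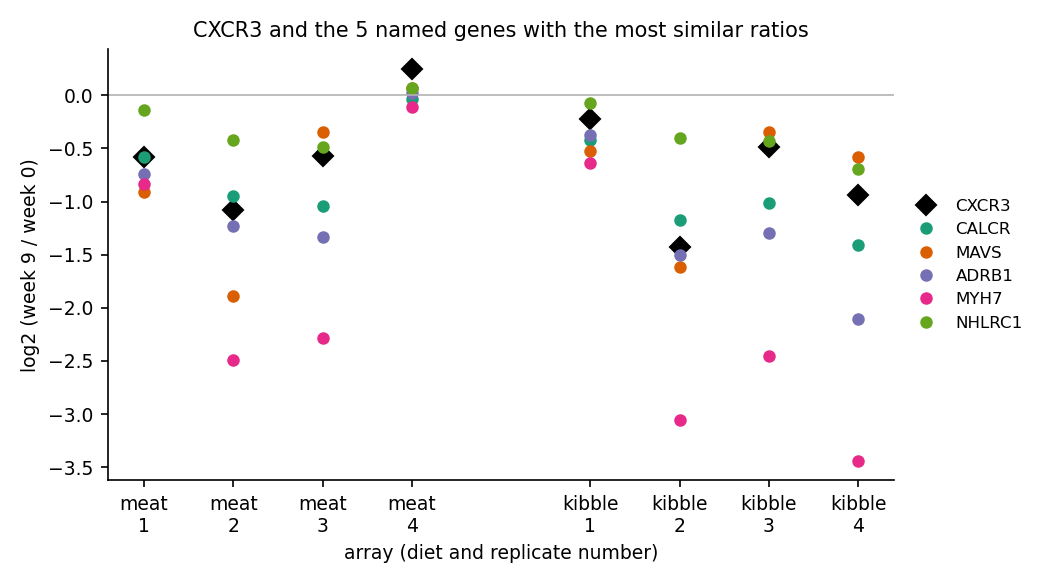
Log2 ratio of week 9 over week 0 on the 4 meat and 4 kibble arrays for CXCR3 (black diamonds) and the 5 named genes most like it over 30 arrays (dots). Meat replicate 4 is nearest 0 of the meat arrays for all 6 genes. The order of the arrays otherwise differs in part: the lowest kibble array is replicate 2 for CXCR3 and MAVS and replicate 4 for the others, with MYH7 at -3.44.

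CCR9 and CX3CR1 did not pass between weeks. CCR9 stood at -0.31 ± 0.18 on meat (arrays -0.66, -0.41, -0.37 and 0.07, adjusted p = 0.344 in limma) and at -0.34 ± 0.18 on kibble (-0.83, -0.22, -0.14 and -0.07, adjusted p = 0.238) at week 9 against 0. CX3CR1 stood at 0.29 ± 0.15 on meat (0.83, 0.47, 0.46 and 0.16, adjusted p = 0.288) and at 0.19 ± 0.15 on kibble (0.38, 0.02, -0.12 and -0.27, adjusted p = 0.47). ACKR3 stood at -0.01 ± 0.07 on meat and -0.04 ± 0.07 on kibble. CCR3 was lower at week 9 on kibble (-0.66 ± 0.22, adjusted p = 0.0462, 4 of 4 arrays) and did not pass on meat (-0.28 ± 0.22, adjusted p = 0.525).

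Between weeks 3 and 6 no receptor passed on either diet, where 2.25% of all transcripts passed on meat and 0.0347% on kibble. CCR9 was at 0.28 ± 0.18 on meat (arrays 0.60, 0.37, 0.20 and -0.22) and at 0.18 ± 0.18 on kibble (0.38, 0.25, 0.16 and 0.09). CX3CR1 was at 0.13 ± 0.15 on meat (0.29, 0.19, -0.02 and -0.02) and at -0.30 ± 0.15 on kibble (-0.10, -0.22, -0.33 and -0.48). These array values did not overlap, but the dye order was opposite in the diets and the CX3CR1 dye term was 0.33. With the dye term left in, they ran from -0.35 to -0.04 on meat and from -0.15 to 0.23 on kibble, and overlapped. The fitted CX3CR1 change on meat minus that on kibble was 0.42 ± 0.19 (95% interval 0.03 to 0.81) and did not pass (adjusted p = 0.49 in limma). In that comparison 0% of transcripts passed, 0 of 25954, and 2523 had an unadjusted p under 0.05. CXCR3 was at -0.05 ± 0.17 on meat and -0.16 ± 0.17 on kibble.

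Of the 4 receptors CX3CR1 alone had a dye term that passed (0.33 ± 0.07 in Cy5 over Cy3, adjusted p = 0.00123 in limma), where 21.6% of all transcripts had one. Its 2 routes through the arrays of weeks 0 and 9 differed. The diet arrays gave a change of -0.39 in the meat over kibble ratio at week 9 relative to week 0, and the time arrays gave 0.72 with the dye term of the diet arrays removed. For weeks 3 and 6 the routes gave 0.42 and 0.64. For CCR9 the routes gave 0.10 and -0.12 in weeks 0 and 9, and 0.21 and -0.07 in weeks 3 and 6. Those of CXCR3 gave 0.14 and 0.26, and 0.21 and 0.02. With 1 dye term per scan session the CX3CR1 mean of the fed weeks was -0.53 (adjusted p = 0.000635).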

How the data were processed

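Total RNA of PBMC was labelled and hybridised to 2-colour Agilent arrays. Per the file headers, Agilent Feature Extraction 10.10.1.1 wrote the median intensity of each spot and of its local background in both dyes, its processed intensity and its flags (whole numbers that mark other properties, such as a spot well above background), with probes placed on CanFam3.1. The authors' deposited log2 ratios were made with limma, per the submitters' processing notes, by steps not given in the sources used here. Their column medians lay between -0.00792 and 0.00453, and their correlation with the ratios below, per array, was 0.834 to 0.992, so they run as Cy5 over Cy3.

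From the scanner files, 979 spots marked as outliers were left out and none was saturated. Background was corrected by normexp (offset 50) on median signals, and ratios were normalised by loess (span 0.3, controls at weight 0). A probe was kept if 7 or more of the 60 channels stood well above background (31698 probes), and the brightest probe stood for each gene or transcript (25954). Levels per channel are loess and Aquantile normalised log2 intensities. limma 3.58.1 in R 4.3.3 (with data.table, version 1.17.8) fitted all 30 arrays, with the dye as a term and 23 residual degrees of freedom. Tests were two-sided. The arrays form 2 loops, weeks 0 and 9 and weeks 3 and 6. Each week's diet comparison used a separate slide, so in it week and slide cannot be told apart. Precision is limited by the number of arrays. The fit was tested on simulated data. Replicate numbers were not used to pair samples in the main fit. Residual correlations of arrays with the same number had a median of -0.02 (-0.78 to 0.62), against -0.03 (-0.56 to 0.64) for different numbers. The sign of such a correlation depends on the dye of a shared sample, so these medians cannot show whether the numbers pair samples.

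All 4 receptors were named. Of each gene list, counts and medians are given, and genes that passed (at most 6) are named, with the measured receptors and ligands. A few genes that this rule names are not reported here. The likeness rule took the 5 highest and 3 lowest Pearson r. Members and lists were chosen with earlier results of these data known.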

Additional observations from a re-analysis of the deposited data

Results flagged for a closer look

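On the 4 arrays that compare the diets at week 9, CX3CR1 was at 0.17 (log2 meat over kibble) on the array kibble 9/meat 9 replicate 2 and between -0.66 and -0.52 on the others. That gap was large for the range of the group. Of 24 such groups of 4 arrays this was the 1 with such a gap, and chance gives one in about 1 of 20 groups.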

How the results depend on the processing

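Each receptor's value was recomputed under 16 other settings and without each of the 30 arrays, in the limma fit. No result past the threshold changed sign. The lower value of CX3CR1 on meat over weeks 3, 6 and 9 passed in all 46. At week 3 it missed the threshold with only the arrays that join the groups (-0.90) and without meat 3/kibble 3 replicate 2. Left out one at a time, the arrays gave -1.01 to -0.75 at week 3 and -0.59 to -0.46 over the 3 weeks. CCR9 over the 3 weeks missed it with only the joining arrays (0.43) and without each of 3 arrays (0.29 to 0.50 over all arrays left out in turn). CCR9 at week 6 missed it with processed signals (0.81), median centring (0.73), no filter (0.62), the slide as a fixed block (0.66), the replicate block (0.61), only the joining arrays (0.66) and a dye term per scan session (0.65), chosen after seeing the data. Leaving out single arrays gave 0.35 to 0.80, and 10 of these fits missed it, of which those without kibble 6/meat 6 replicate 1 and meat 6/kibble 6 replicate 2 gave adjusted p-values of 0.397 and 0.154. The other 8 gave 0.0505 to 0.0588, without kibble 3/kibble 6 replicates 1 and 3, meat 6/meat 3 replicates 1, 3 and 4, meat 0/kibble 0 replicate 2, kibble 3/meat 3 replicate 1 and meat 3/kibble 3 replicate 2. CXCR3 on kibble between weeks 0 and 9 missed it with the slide as a fixed block (-0.66) and only the joining arrays (-0.82), and passed without each array (-0.85 to -0.58). On meat it passed in 8 of 46. The replicate block changed no other call. Of 43 receptor values that did not pass, 22 changed sign in some setting, counting a change to or from a rounded 0. The cause of these shifts was not tested.

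Of all transcripts 3869 passed over weeks 3, 6 and 9, against 1080 with median centring and 2388 with only the joining arrays. The 46 settings gave 0 to 218 passes at week 0 (81 as reported), 0 to 2136 at week 3 (1580), 1 to 3009 at week 6 (1617) and 0 to 204 at week 9 (151). For week 9 against 0 they gave 1816 to 5631 on kibble (3539) and 0 to 3228 on meat (2087), and for week 6 against 3, 0 to 349 on kibble (9) and 3 to 2216 on meat (583). The fed difference minus that of week 0 gave 0 to 237 (0), and the diet differences of the changes 0 to 2 (0 each). The share of passes that were higher moved with median centring: 0% against 23.5% at week 0, 5.51% against 37.8% at week 3, 20% against 43.7% at week 9, 18.9% against 37% for kibble between weeks 0 and 9, and 94.9% against 79.2% for meat between weeks 3 and 6. Processed signals gave 49% against 37% for kibble between weeks 0 and 9, and the deposited ratios 63.9% against 88.9% of the few passes for kibble between weeks 3 and 6.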
